A study of Homo sapiens with 9 samples.

Results

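The genes examined here are MDM2, CDK4, HMGA2, TSPAN31, FRS2, YEATS4 and CPM, which lie in chromosome bands 12q13 to 12q15, the stretch that is characteristically amplified in well-differentiated and dedifferentiated liposarcoma. The 7 members were taken by gene symbol, with every probe set that the array's platform annotation assigns to that symbol alone. This gave 29 probe sets, of 54675 in the table, for 6 of the 7 genes: 10 for MDM2, 9 for HMGA2, 6 for CPM, 2 for TSPAN31 and 1 each for CDK4 and YEATS4. FRS2 had no probe set of that kind in the annotation used and was not analysed here.

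RNA was measured in LiSa-2, a human liposarcoma cell line, on Affymetrix Human Genome U133 Plus 2.0 arrays in 3 groups of 3 samples. The enzyme given was hyaluronidase from bovine testis (HAase), which cuts the matrix polysaccharide hyaluronan, at 400 µg/mL for 24 h or for 6 h; the controls received phosphate-buffered saline (PBS) and were taken at 24 h. The 6 h HAase samples therefore differ from PBS in harvest time as well as in enzyme, and these cannot be told apart; no heat-inactivated or other mock enzyme was among the groups. All samples come from 1 cell line. Nothing in the labels tells if arrays of the same group came from different dishes, so p-values measure the spread between these samples only, which may be technical. No genomic DNA and no normal fat tissue was measured, so gene copy number is not addressed by these data.

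Amplification of this part of chromosome 12 raises the dose of several genes at the same time, and MDM2 and CDK4 are the members most used in diagnosis. MDM2 is the ubiquitin ligase that holds p53 at low levels, and CDK4 is the cyclin D-dependent kinase that phosphorylates the retinoblastoma protein and so frees E2F factors at the entry to S phase. HMGA2 is an AT-hook chromatin protein of embryonic tissue and mesenchymal tumours; YEATS4 is a histone reader of the TIP60 and SRCAP chromatin complexes; FRS2 is the docking protein of fibroblast growth factor (FGF) receptors; CPM is a membrane-bound carboxypeptidase, and TSPAN31 a tetraspanin.

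The array values are signal intensities as the authors deposited them, with a trimmed mean of 500.1 on every array, and array medians lay between 55.8 and 61.3. The highest of 27 bacterial control probe sets on an array, between 34.2 and 65.0, is called the control level here, and a signal at or below it is not distinguished from background. Within a group, 2 arrays correlated at r = 0.984 to 0.986 over all probe sets with 1 symbol, and arrays of different groups at 0.965 to 0.976. Changes are given as log2 fold changes of signal + 16 with their standard error (SE), tested with limma over all 13842 genes whose brightest probe set passed a filter on low signal, and a gene is called when its Benjamini-Hochberg adjusted p is below 0.05. A fold is 2 raised to this log2 value, and so understates the change of dim genes.

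HMGA2 stood apart from the other members: it rose strongly with HAase at both times, whereas, by its brightest probe set, the change of every other member with a value was at most 1.54-fold in all 3 comparisons. YEATS4 was lower than PBS at 6 h, CPM was higher than PBS at 6 h, and MDM2, CDK4 and TSPAN31 did not pass the test at either time by their brightest probe set. After 24 h of HAase, HMGA2 was the only one of the 6 measured members past the test by its brightest probe set, as higher; at an unadjusted p below 0.05 YEATS4 joined it, also as higher, and no brightest probe set was lower by either limit. The second TSPAN31 probe set was lower, with the values given under that gene. After 6 h, 2 members were higher and 1 was lower. Between 24 h and 6 h of HAase, 2 were higher and 1 was lower. Many genes changed in these cells: over all genes tested, 40.3% were called at 24 h against PBS (17.5% higher and 22.8% lower), 42.4% at 6 h against PBS (15.0% higher and 27.4% lower), and 33.0% at 24 h against 6 h (19.7% higher and 13.3% lower). The share of members called is thus not above that of all genes at 24 h against PBS, and 6 genes are too few to set the other shares apart. The median log2 change of the 6 members was 0.05 at 24 h and 0.06 at 6 h against PBS, beside -0.03 and -0.08 for all genes. Both comparisons with PBS use the same 3 PBS arrays.

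**Figure D1:**
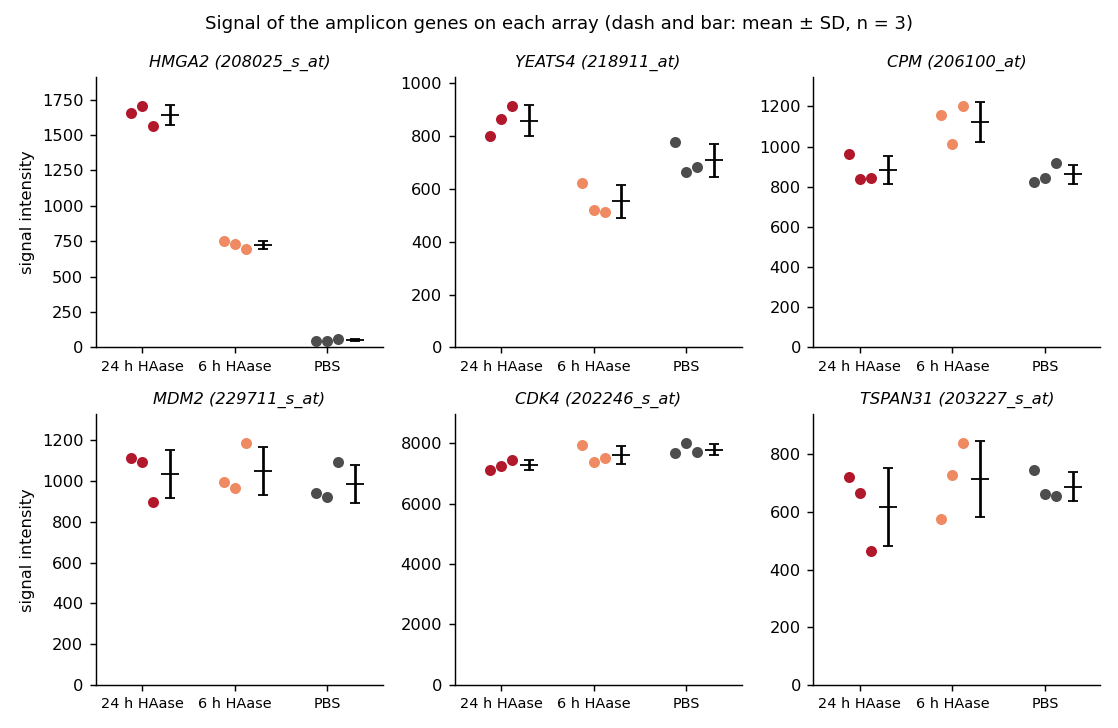
Signal intensity (linear, from 0) of the brightest probe set of each measured member on each array, with 24 h HAase, 6 h HAase and PBS from left to right; the dash and bar give the mean and SD of 3 arrays. HMGA2 signals lie between 1565 and 1705 at 24 h, between 692 and 749.7 at 6 h and between 43.6 and 60.3 in PBS, whereas the groups of the other 5 genes differ little or overlap.

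HMGA2 binds the minor groove of AT-rich DNA, is high in the embryo and in proliferating preadipocytes, and is silent in most adult tissue. On probe set 208025_s_at it gave signals of 1658, 1705 and 1565 after 24 h of HAase. After 6 h of HAase the signals were 749.7, 732 and 692, and in PBS 43.6, 49.2 and 60.3. The 3 groups did not overlap, and the PBS signal exceeded the control level on 1 of 3 arrays only.

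HMGA2 was 24.9-fold higher at 24 h than in PBS, a log2 change of 4.64 ± 0.09 (SE; n = 3 arrays a group; adjusted p = 3.16e-08, limma). The sizes of the folds against PBS rest on PBS signals near the control level. At 6 h it was 11.1-fold higher (log2 change 3.47 ± 0.09; adjusted p = 1.44e-07). It was 2.24-fold higher at 24 h than at 6 h (1.16 ± 0.09; adjusted p = 6.95e-05). These HMGA2 calls held under all 19 alternatives tried, but averaging the log2 values over all its probe sets, the dim ones included, left 1.64 at 24 h and 0.82 at 6 h. With 3 arrays against 3, an exact two-sided permutation test of 1 gene cannot give a p under 0.1.

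The 8 other HMGA2 probe sets carry weaker signals. They passed the filter on low signal, where they did, through the HAase arrays, so their values are a description and no test of them is given. On 1558683_a_at the signals were 248, 242 and 274 at 24 h, 57.3, 76.0 and 83.3 at 6 h, and 18.9, 11.6 and 16.6 in PBS, where none of the arrays was above its control level. Measured against that level, it was at least 5.22-fold higher at 24 h and at least 1.47-fold higher at 6 h.

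Another 3 HMGA2 probe sets were above the control level on all 3 arrays at 24 h and on none in PBS. Their increases at 24 h were at least 2.88-fold for 1561633_at, at least 1.78-fold for 1567224_at and at least 1.62-fold for 1558682_at. On 1559891_at the groups overlapped, and no PBS array was above its control level. The remaining 3, 1567223_at, 1568286_at and 1568287_at, lay at or below the control level on all 9 arrays and show no direction.

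**Figure D2:**
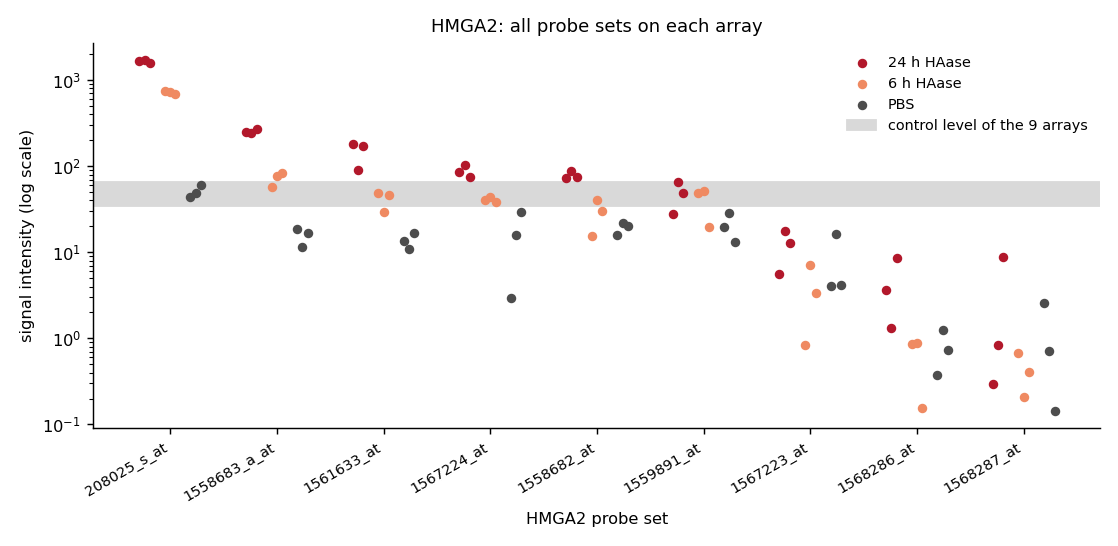
Signal intensity (log axis) of all 9 HMGA2 probe sets on each array, with 24 h HAase, 6 h HAase and PBS from left to right within each probe set; the grey band spans the control levels of the 9 arrays. Probe set 208025_s_at carries the highest signals, and on it, 1558683_a_at, 1561633_at and 1567224_at the 3 groups do not overlap.

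HMGA2 messenger RNA is a classical target of the let-7 family of microRNAs, which pair with sites in it through their seed, and chromosomal breaks that remove those sites are known in lipomas. A let-7 gene, MIRLET7I, lies in the same chromosome stretch between CDK4 and HMGA2 in the RefSeq gene order. Its mature 5′ product is shown, as annotated by RefSeq at chr12:62603691-62603712 on the plus strand of GRCh38.p14, because its seed (bases 2 to 8, in capitals) is the one the family shares.
hsa-let-7i-5p: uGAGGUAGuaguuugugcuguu
No probe set was assigned to this microRNA gene alone, and no statement on its level is made.

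Of 10 genes around HMGA2, namely its paralogue, let-7 and IGF2 pathway genes, 6 were tested. At 24 h 2 were higher and 1 lower, and at 6 h 1 was higher and 2 lower; the list's median log2 change was 0.25 at 24 h and -0.17 at 6 h. HMGA1, the paralogue with the same AT-hook motif, rose with HMGA2: its mean signal was 3324 at 24 h, 1254 at 6 h and 299 in PBS, a 10.7-fold increase at 24 h (adjusted p = 6.33e-07) and a 4.09-fold increase at 6 h (adjusted p = 1.64e-05). A second HMGA1 probe set, 210457_x_at, gave smaller log2 changes of 1.38 at 24 h and 0.75 at 6 h, also past the test. IGF2BP2, an IGF2 messenger RNA-binding protein whose gene HMGA2 is known to activate, was 1.24-fold higher at 24 h (adjusted p = 0.0424). CCNA2, the cyclin A2 gene, was 1.22-fold lower at 24 h and 1.51-fold lower at 6 h. IGF2BP3 was 1.32-fold lower at 6 h (adjusted p = 0.00225), although 2 of its 3 other probe sets did not pass there.

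The genes whose signal followed HMGA2 most closely over the 9 arrays were CD44 (r = 0.998), HPCAL1 (r = 0.998) and WNT5A (r = 0.998). CD44 encodes the main cell-surface receptor of hyaluronan, the substrate of the enzyme given. These correlations describe 9 arrays in 3 groups and are dominated by the distances between the groups.

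Adipocyte markers were lower than PBS at 24 h, and most of them at 6 h, where HMGA2 was higher. All 8 adipocyte markers examined (PPARG, CEBPA, FABP4, PLIN1, ADIPOQ, LPL, CIDEC and LIPE) had a probe set above the control level on every PBS array, in keeping with the fat-lineage label, and by their brightest probe set all 8 were called lower at 24 h and 6 of 8 at 6 h, with none higher. A second FABP4 probe set, 235978_at, went the other way at 6 h: its log2 change was -1.61 at 24 h (adjusted p = 3.45e-05) and 0.54 at 6 h (adjusted p = 0.0119). The markers' median log2 change was -2.31 at 24 h and -1.04 at 6 h. At 24 h against 6 h of HAase, 7 of the 8 were lower and 1 was higher. Their summed signal lay between 29138 and 33770 at 24 h, between 44999 and 47088 at 6 h, and between 58023 and 59864 in PBS. ADIPOQ, the adiponectin gene, was 17.7-fold lower at 24 h, and PLIN1, which coats lipid droplets, 13.4-fold lower. CEBPA, a master factor of fat cell differentiation, was 6.98-fold lower at 24 h and 8.81-fold lower at 6 h. LIPE, the hormone-sensitive lipase gene, was 6.24-fold and 4.51-fold lower at the same times. In a bulk sample, fewer cells of a kind and less RNA per cell cannot be told apart, and the part of this shift in the HMGA2 result was not tested.

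Markers of other cell types stayed low. The summed signal of 6 epithelial markers was 204 to 268 at 24 h, 199 to 295 at 6 h and 184 to 262 in PBS. For 5 leukocyte markers it was 330 to 380 at 24 h, 208 to 246 at 6 h and 167 to 239 in PBS, and for 5 endothelial markers 420 to 442, 374 to 427 and 277 to 342. In PBS 5 of the 6 epithelial, 2 of the 5 leukocyte and 3 of the 5 endothelial markers were at or below the control level on every array. CSF1R, a receptor of monocytes and macrophages, was nonetheless higher at both times, with mean signals of 182 at 24 h, 115 at 6 h and 81.0 in PBS, as was PECAM1, an endothelial adhesion protein, with 349, 316 and 236, although 1 of its 3 other probe sets did not pass at 24 h and 2 did not pass at 6 h. The only other leukocyte marker tested, the integrin gene ITGAM, did not pass at either time by its brightest probe set, and was lower at 24 h on 205786_s_at (-1.31; adjusted p = 0.000909).

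MDM2 messenger RNA was well above background but showed no change past the test on its brightest probe set. On 229711_s_at the signals were 1115, 1093 and 899 at 24 h of HAase. At 6 h they were 995, 968 and 1185, and in PBS 944, 920.4 and 1093. The 3 groups overlapped. The log2 change was 0.07 ± 0.12 at 24 h (95% interval -0.20 to 0.34; adjusted p = 0.690) and 0.09 ± 0.12 at 6 h (-0.18 to 0.36; adjusted p = 0.592), so an increase of the size of HMGA2's lies outside both intervals.

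Probe sets of the other members were tested in a limma fit over 26599 probe sets, in which 33.3% were called at 24 h against PBS, 33.4% at 6 h against PBS and 24.9% at 24 h against 6 h. The second bright MDM2 probe set, 225160_x_at, read 696, 735 and 753 at 24 h, 732, 690.2 and 765 at 6 h, and 689.9, 637 and 642 in PBS. Each HAase array lay above each PBS array here, by a log2 change of 0.15 ± 0.07 at both times, which did not pass the test (adjusted p = 0.138 at 24 h and 0.133 at 6 h). Separation from PBS, in either direction, was seen for 52.0% of all genes tested at 24 h and 54.2% at 6 h. The suffix _x_at marks a probe set that may also bind other transcripts. Of the other 8 probe sets of MDM2, 5 passed the filter on low signal, and none was above the control level on all 9 arrays. Among these dim ones, 205386_s_at was called higher at 6 h (0.54 ± 0.16; adjusted p = 0.0326), at signals of 36.3, 49.2 and 58.7 against 20.9, 27.2 and 35.6 in PBS, where it was on no array above the control level; it passed the filter only through the 6 h arrays, so this call is no support for an increase. A larger change at 6 h on another dim probe set, 244616_x_at, did not pass (1.04 ± 0.48, adjusted p = 0.141). Its signals were 92.1, 187 and 67.5 at 6 h and 63.4, 31.8 and 39.9 in PBS. When the log2 values of all 10 MDM2 probe sets were averaged instead, MDM2 was past the test at 6 h (0.27; adjusted p = 0.0248) and lower at 24 h than at 6 h (-0.25; adjusted p = 0.0486), so a call for MDM2 depends on its dim probe sets.

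MDM2 is a target of p53, through a later transcription start that lies behind a pair of p53 response elements. The 250 bases before that start are shown because MDM2, a p53 target, was not called by its brightest probe set. They are RefSeq's, chr12:68808767-68809016 on the plus strand of GRCh38.p14. Capitals mark stretches that match the p53 half-site, a consensus of 10 letters read alike on both strands, with at most 1 mismatch.
MDM2: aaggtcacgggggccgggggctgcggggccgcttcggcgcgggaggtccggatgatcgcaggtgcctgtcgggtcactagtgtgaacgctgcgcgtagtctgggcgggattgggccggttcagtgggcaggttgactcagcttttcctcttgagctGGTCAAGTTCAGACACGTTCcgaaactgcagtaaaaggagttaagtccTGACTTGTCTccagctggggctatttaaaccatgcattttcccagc
There were 3 matches, starting 94, 84 and 46 bases before the start, the first 2 abutting each other. Such loose matches are common: 57.5% of 35116 RefSeq promoter windows of that length hold at least 1, and 6.88% hold 3 or more. The windows before the upstream MDM2 starts held none. A match is a description of letters and not evidence of binding.

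The p53 pathway genes moved in both directions. Of 19 tested p53 target genes (23 listed, 20 with a probe set), 8 were higher and 8 lower at 24 h, and likewise 8 and 8 at 6 h. Among all genes, 17.5% were higher and 22.8% lower at 24 h, and 15.0% and 27.4% at 6 h. A larger share of this list was thus called, in both directions and at both times. The list's median log2 change was -0.07 at 24 h and -0.03 at 6 h, beside -0.03 and -0.08 for all genes. A median does not show changes that cancel. GDF15, a secreted stress cytokine, was 6.63-fold higher at 24 h and 23.8-fold higher at 6 h. A second GDF15 probe set, 229868_s_at, gave smaller log2 changes of 1.36 at 24 h and 1.85 at 6 h, also past the test. CDKN1A, which encodes the p21 inhibitor of cyclin-dependent kinases, had mean signals of 5954 at 24 h, 6622 at 6 h and 1947 in PBS and was 3.04-fold and 3.38-fold higher at the 2 times. SESN2, a stress-induced sestrin, was 2.83-fold higher at 24 h, GADD45A, a DNA-damage and stress gene, 3.68-fold higher at 6 h, and AEN, an apoptosis-enhancing nuclease, 2.78-fold higher at 6 h. TP53I3, a p53-induced oxidoreductase, was 3.47-fold lower at 24 h.

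Of 7 tested regulators of p53 or of MDM2, 1 was higher and 3 lower at 24 h, and 1 was higher and 2 lower at 6 h. DAXX, which binds MDM2, was 1.30-fold higher at 24 h and 1.55-fold higher at 6 h. TP53BP1, a p53-binding protein of the DNA damage response, was 1.42-fold lower at 24 h and 1.35-fold lower at 6 h. PPM1D, a phosphatase of p53, was 1.24-fold lower at both times. CDKN2A, whose alternative product ARF binds MDM2, was 1.19-fold lower at 24 h. Other probe sets of DAXX, TP53BP1, PPM1D and CDKN2A did not pass the test at 24 h, nor did those of PPM1D and 1 of TP53BP1 at 6 h.

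CDK4 messenger RNA showed no change past the test. On its probe set, 202246_s_at, the signals were 7106, 7248 and 7443 at 24 h. At 6 h they were 7925, 7359.6 and 7516, and in PBS 7672, 7987 and 7699. Each 24 h array lay below each PBS array, a separation seen in either direction for 52.0% of all genes tested. The log2 change of -0.10 ± 0.05 did not pass the test (95% interval -0.22 to 0.02, adjusted p = 0.159). With quantile normalization of the arrays it did (-0.14; adjusted p = 0.0462), the only one of 19 alternatives to do so. At 6 h the groups overlapped, and the log2 change was -0.04 ± 0.05 (-0.15 to 0.08; adjusted p = 0.617).

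The 250 bases before the CDK4 start are shown because its promoter is known for E boxes, the sites of MYC and its partner MAX. They are RefSeq's, chr12:57752311-57752560 on the minus strand of GRCh38.p14, printed in the direction of transcription. Capitals mark CACGTG, which reads alike on both strands.
CDK4: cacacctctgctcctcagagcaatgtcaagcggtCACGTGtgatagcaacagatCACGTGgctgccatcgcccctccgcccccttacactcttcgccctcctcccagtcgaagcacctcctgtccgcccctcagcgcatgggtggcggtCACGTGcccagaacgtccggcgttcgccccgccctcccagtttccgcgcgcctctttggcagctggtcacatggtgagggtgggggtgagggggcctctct
CACGTG occurred 3 times, at 216, 196 and 101 bases before the start. Of the 35116 windows, 6.34% held it at least once and 0.0797% at least 3 times. None of the windows of MDM2, TSPAN31, FRS2, YEATS4 or CPM held it. In all, 6 of the 7 members had at least 1 window in the table.

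Several partners and inhibitors of CDK4 were called. Of 20 tested genes of the CDK4, cyclin D and retinoblastoma axis, 5 were higher and 7 lower at 24 h, and 9 were higher and 6 lower at 6 h. CCND1, which encodes cyclin D1, the activating partner of CDK4, had a mean signal of 1260.7 at 24 h, 459 at 6 h and 56.1 in PBS, where it was above the control level on 2 of 3 arrays. It was 17.9-fold higher at 24 h (adjusted p = 2.78e-07) and 6.67-fold higher at 6 h (adjusted p = 3.55e-06). A second CCND1 probe set, 208711_s_at, gave log2 changes of 2.78 and 1.96 at these times, both past the test. CDKN1C, which encodes the p57 inhibitor of cyclin-dependent kinases, was 5.34-fold lower at 24 h and 8.18-fold lower at 6 h, and its 3 other probe sets were lower as well. CDKN2B, which encodes the p15 inhibitor of CDK4, was 1.93-fold lower at 24 h (adjusted p = 1.53e-05), and CDKN2D, which encodes the p19 inhibitor, 2.32-fold lower at 6 h. CDKN1A, counted among the p53 targets too, was higher at both times. The list thus holds an activator and an inhibitor that rose and other inhibitors that fell.

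E2F target genes of S phase changed little in size. Of 16 tested, 1 was higher and 7 lower at 24 h, and 4 were higher and 3 lower at 6 h, with a median log2 change of -0.15 and -0.04. TK1, thymidine kinase, was 1.56-fold lower at 24 h and 1.31-fold lower at 6 h. CDK1, the mitotic kinase, was 1.40-fold and 1.41-fold lower, and CCNA2 stood with it, as given above. MCM6, a subunit of the replicative helicase, was 1.27-fold lower at 24 h. RRM2, the small subunit of ribonucleotide reductase, was 1.36-fold higher at 24 h and 1.35-fold higher at 6 h, and CDT1, a replication licensing factor, was 1.36-fold higher at 6 h (adjusted p = 0.0487), although its other probe set did not pass.

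YEATS4, also called GAS41, differed between the 2 HAase times. On 218911_at the signals were 799, 863 and 913 at 24 h. They were 623, 521 and 514 at 6 h and 779, 663 and 683 in PBS. All 24 h arrays lay above all PBS arrays, and all 6 h arrays below them. Such a separation from PBS, in either direction, was seen for 52.0% of all genes tested at 24 h and 54.2% at 6 h. YEATS4 was 1.54-fold higher at 24 h than at 6 h (0.62 ± 0.10; adjusted p = 0.00212), and this call held under all 19 alternatives.

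Against PBS, YEATS4 was 1.28-fold lower at 6 h (-0.35 ± 0.10; adjusted p = 0.0222). That call was lost with quantile normalization (adjusted p = 0.0549) and without 6 h replicate 2, 6 h replicate 3 or PBS replicate 1 (-0.31, -0.30 and -0.28; adjusted p = 0.0710, 0.0722 and 0.0717). The increase at 24 h, 0.27 ± 0.10 (95% interval 0.05 to 0.50), did not pass after adjustment over all genes (adjusted p = 0.0584) and did so in 6 of 19 alternatives, over which the adjusted p ranged between 0.0315 and 0.164. One of these 6 left out PBS replicate 1, whose signal of 779 is the highest of its group (0.34; adjusted p = 0.0392), and another left out 6 h replicate 1 (adjusted p = 0.0352).

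Of 20 tested genes of the TIP60 and SRCAP complexes and of YEATS-domain proteins, 9 were higher, 1 was lower and 10 were not called at 24 h against 6 h, where 19.7% and 13.3% of all genes were higher and lower; the list's median was 0.14, beside 0.05 for all genes. Against PBS, 4 were higher and 6 lower at 24 h, and 1 was higher and 7 lower at 6 h. MRGBP, a small TIP60 subunit, was 1.51-fold higher at 24 h. DMAP1, a subunit of both complexes, was 1.34-fold lower at 24 h and 1.51-fold lower at 6 h, and ING3, a histone reader of TIP60, 1.32-fold and 1.36-fold lower. On a second ING3 probe set, 231863_at, the log2 change was -0.94 at 24 h against 6 h (adjusted p = 7.9e-05), where the brightest did not pass. MORF4L1, a chromodomain subunit, was 1.27-fold lower at 24 h, although its probe set 221381_s_at did not pass. BRD8, a bromodomain subunit, was 1.64-fold lower at 6 h, and MLLT3, another YEATS-domain protein, 3.02-fold lower at 6 h.

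CPM removes basic residues from the C termini of peptides such as the kinins, and lies next to MDM2 in the gene order. On 206100_at the signals were 964, 840.1 and 844 at 24 h. They were 1156, 1011 and 1202 at 6 h and 826, 845 and 917 in PBS. All 6 h arrays lay above all others, and the 24 h and PBS arrays overlapped. Separation of the 6 h arrays from PBS, in either direction, was seen for 54.2% of all genes tested. CPM was 1.29-fold higher at 6 h than in PBS (0.37 ± 0.09; adjusted p = 0.0104), a call that held under all 19 alternatives. At 24 h the log2 change from PBS was 0.03 ± 0.09 (95% interval -0.17 to 0.23; adjusted p = 0.814).

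CPM was 1.27-fold lower at 24 h than at 6 h (-0.34 ± 0.09; adjusted p = 0.0194). This call was lost without 24 h replicate 2, 24 h replicate 3, 6 h replicate 1 or 6 h replicate 3 (-0.31, -0.31, -0.32 and -0.29; adjusted p = 0.0638, 0.0610, 0.0614 and 0.0649). The probe sets 235706_at and 241765_at were also higher at 6 h than in PBS, by 0.40 ± 0.13 and 0.40 ± 0.12 (adjusted p = 0.0455 and 0.0312). On 235019_at the change was 0.39 ± 0.13 (adjusted p = 0.0570). The 2 dimmest, 243403_x_at and 217557_s_at, gave 0.12 and 0.00 and did not pass. At 24 h no CPM probe set passed against PBS in this limma fit, with log2 changes between -0.18 and 0.31 and none at an unadjusted p below 0.05. At 24 h against 6 h, 206100_at and 235706_at passed as lower in the same fit (-0.34 and -0.58, adjusted p = 0.0293 and 0.0139). The others did not pass, at -0.32 on 235019_at, -0.22 on 241765_at, -0.14 on 243403_x_at and 0.31 on 217557_s_at.

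**Figure D3:**
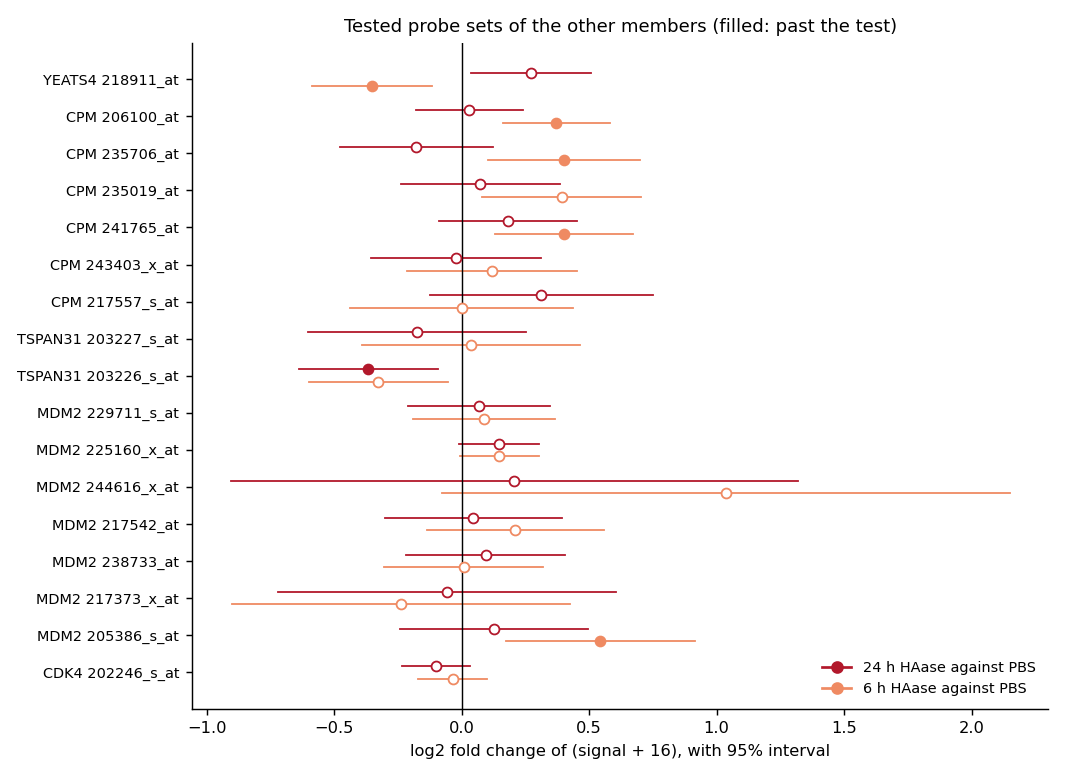
Log2 fold change of signal + 16 with its 95% interval (horizontal axis) for each tested probe set of YEATS4, CPM, TSPAN31, MDM2 and CDK4, with 24 h HAase against PBS above 6 h HAase against PBS in each row; filled circles passed the test in the fit over probe sets. There are 3 CPM probe sets that pass at 6 h, and TSPAN31 203226_s_at is the only one of the 17 that passes at 24 h.

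Both kinin receptors were, like CPM, lower at 24 h than at 6 h of HAase. Of 7 tested carboxypeptidases and kinin receptors, 1 was higher and 4 lower at 24 h, and 1 was higher at 6 h. At 24 h against 6 h of HAase, 1 was higher and 3 lower, where 19.7% and 13.3% of all genes were higher and lower. BDKRB1, the receptor of kinins trimmed by carboxypeptidases, had mean signals of 54.9 at 24 h, 226 at 6 h and 117 in PBS: it was 1.88-fold lower at 24 h (adjusted p = 0.000664) and 1.79-fold higher at 6 h (adjusted p = 0.00107). BDKRB2, the receptor of intact bradykinin, was 3.29-fold lower at 24 h (adjusted p = 0.0328), with a log2 change of 0.88 at 6 h that did not pass. At 24 h against 6 h of HAase, BDKRB1 was 3.38-fold and BDKRB2 6.03-fold lower. The 24 h mean of BDKRB1 lies within the control levels of those arrays (36.0 to 63.3), so the sizes of its decreases are uncertain. CPE, a processing carboxypeptidase of prohormones, was 1.83-fold lower at 24 h, and CPD, a carboxypeptidase of the Golgi, 1.27-fold higher, although its probe set 201942_s_at did not pass.

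TSPAN31 is a 4-pass membrane protein whose gene overlaps that of CDK4. On 203227_s_at the signals were 721, 664 and 466 at 24 h. They were 575, 727 and 837 at 6 h and 745, 662 and 656 in PBS. The groups overlapped, and the arrays within each HAase group were far apart. The log2 change was -0.17 ± 0.18 at 24 h (95% interval -0.60 to 0.25; adjusted p = 0.502) and 0.04 ± 0.18 at 6 h (-0.39 to 0.46; adjusted p = 0.891), so changes within these intervals are not excluded.

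The other TSPAN31 probe set, 203226_s_at, was tighter. It read 409, 332 and 405 at 24 h, 356, 431 and 390.3 at 6 h, and 516, 536 and 437 in PBS. All HAase arrays lay below all PBS arrays. Separation from PBS, in either direction, was seen for 52.0% of all genes tested at 24 h and 54.2% at 6 h. The log2 change of 203226_s_at was -0.37 ± 0.12 at 24 h (adjusted p = 0.0452) and -0.33 ± 0.12 at 6 h (adjusted p = 0.0675). Both probe sets had a negative log2 change at 24 h, but only 203226_s_at passed the test. The wider interval of 203227_s_at includes the change of 203226_s_at.

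Of 23 tested tetraspanins, 4 were higher and 7 lower at 24 h, and 1 was higher and 4 lower at 6 h. CD82, a tetraspanin known to restrain migration, was 6.78-fold higher at 24 h and 3.38-fold higher at 6 h. CD9 was 3.22-fold lower at 24 h and 1.58-fold lower at 6 h. TSPAN18 was at least 2.71-fold lower at 24 h, where it was above the control level on no array, and TSPAN7 was 2.02-fold lower. TSPAN33 and TSPAN12 were 1.55-fold and 1.23-fold lower at 6 h, although 2 other probe sets of TSPAN12 did not pass.

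For FRS2, which has no value here, its pathway was described in its place. Of 17 tested genes of FRS2 and FGF receptor signalling, 9 were higher and 2 lower at 24 h, and 8 higher and 3 lower at 6 h. Among all genes, 17.5% were higher and 22.8% lower at 24 h, and 15.0% and 27.4% at 6 h. The list's median log2 change was 0.21 at 24 h and 0.13 at 6 h. DUSP6, an ERK phosphatase, had mean signals of 5445 at 24 h, 8858 at 6 h and 356 in PBS and was 14.7-fold and 23.8-fold higher. SPRY2, a Sprouty inhibitor of receptor signalling, was 6.35-fold and 5.93-fold higher. ETV4, an ETS transcription factor, was above the control level on no PBS array and was at least 6.81-fold higher at 24 h and at least 4.03-fold higher at 6 h. FGF2, a ligand, was 3.90-fold higher at 24 h and 6.37-fold higher at 6 h. FGFR2, a receptor, was 12.1-fold lower at 24 h and 4.87-fold lower at 6 h, with 3 further probe sets lower and 1, 208229_at, at log2 changes of -0.03 and 0.13 that did not pass. These genes respond to many receptors, so their change is not a readout of FRS2.

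**Figure D4:**
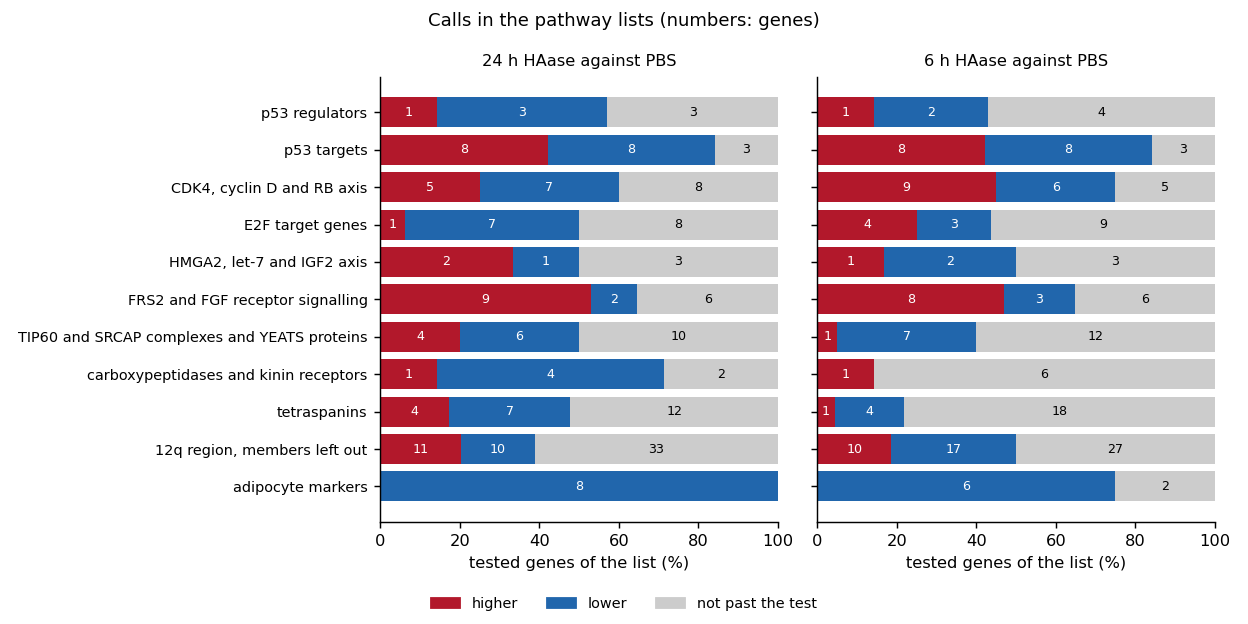
Share of the tested genes of each pathway list (horizontal axis, percent) that were higher, lower or not past the test, with 24 h HAase against PBS on the left and 6 h HAase against PBS on the right; numbers in the bars are genes. FGF receptor signalling has 9 of 17 genes higher at 24 h, p53 targets are split into 8 higher and 8 lower at both times, and all 8 adipocyte markers are lower at 24 h. Of all genes tested, 17.5% were higher and 22.8% lower at 24 h, and 15.0% and 27.4% at 6 h.

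The members' neighbours on chromosome 12 did not move as a block. Between GLI1 and CNOT2 the RefSeq gene table lists 250 genes, of which 73 are protein-coding, 76 had a probe set with that symbol alone and 60 were tested, 54 of them not members. Of these 54, 11 were higher and 10 lower at 24 h, and 10 were higher and 17 lower at 6 h. Their median log2 change was -0.12 at 24 h and -0.10 at 6 h, and 14 were higher and 6 lower at 24 h than at 6 h. These counts stand beside the 17.5% and 22.8%, 15.0% and 27.4%, and 19.7% and 13.3% of all genes called higher and lower.

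SRGAP1, a component of Slit-Robo signalling that lies between CDK4 and HMGA2, had the largest increase of the 54: its mean signal was 1092 at 24 h, 1135 at 6 h and 256 in PBS, 4.06-fold and 4.24-fold higher, and its 3 other tested probe sets were higher too. HMGA2, as its brightest probe set shows, increased more than any of them. AGAP2, a GTPase-activating protein of the Arf family, was at least 1.46-fold and 1.49-fold higher, on a signal above the control level on no PBS array. DDIT3, the stress transcription factor CHOP that is fused in myxoid liposarcoma, was 1.84-fold and 1.47-fold higher. XPOT, a transfer RNA exporter, was 1.71-fold and RAB3IP, a Rab exchange factor, 1.65-fold higher at 24 h. METTL1, a transfer RNA methyltransferase, and RASSF3 were 1.54-fold and 1.51-fold higher at 6 h, although another RASSF3 probe set, 230466_s_at, did not pass.

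Among the neighbours that fell, ATP23, a mitochondrial peptidase, was 2.86-fold lower at 24 h. SLC16A7, the monocarboxylate transporter MCT2, was 1.73-fold lower, IRAK3, an inhibitor of Toll-like receptor signalling, 1.71-fold, and GIHCG, a long non-coding RNA, 1.56-fold lower at 24 h. GRIP1 was at least 1.69-fold lower at 24 h, where it was above the control level on no array. At 6 h PPM1H, a phosphatase, was 2.06-fold, GIHCG 1.92-fold, SLC35E3 1.72-fold, IRAK3 1.70-fold and MARCHF9 1.67-fold lower. Neither of the other probe sets of IRAK3 passed the test at either time, 2 others of SLC16A7 did not pass at 24 h, and other probe sets of PPM1H and MARCHF9 did not pass at 6 h.

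**Figure D5:**
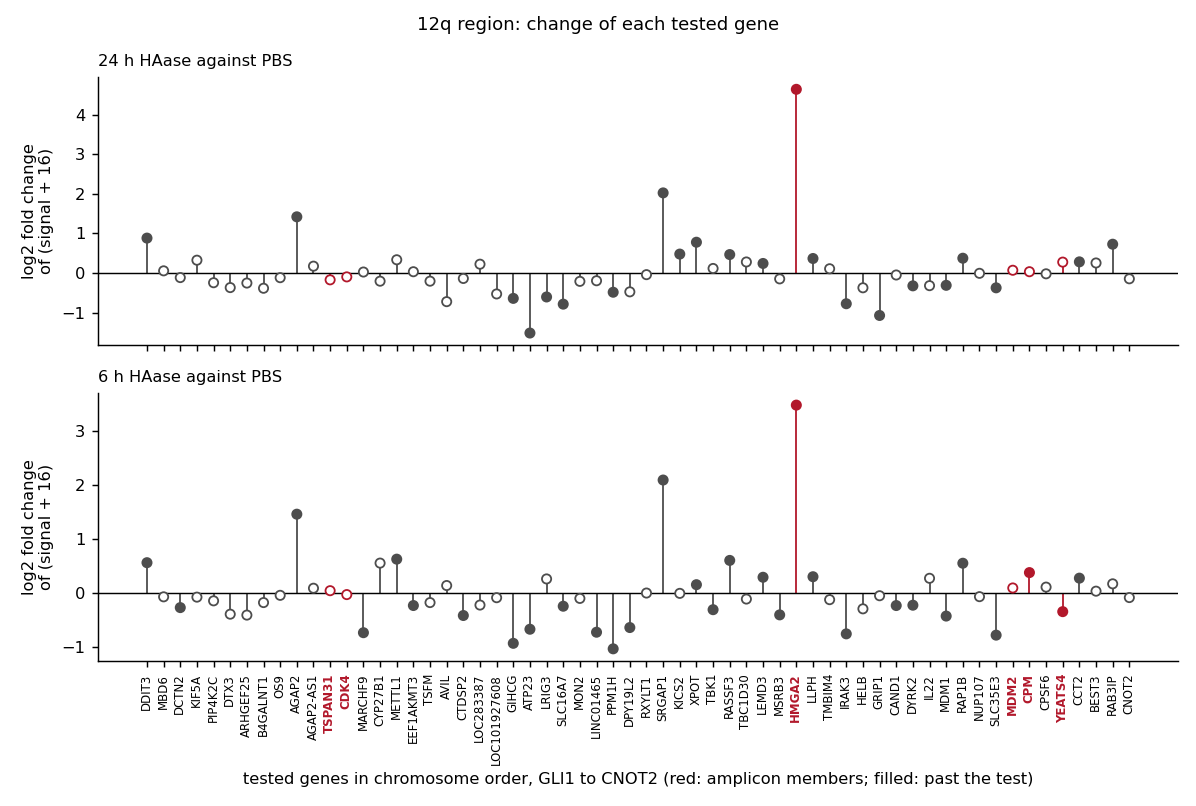
Log2 fold change of signal + 16 (vertical axis) of the 60 tested genes between GLI1 and CNOT2 in chromosome order, with 24 h HAase against PBS above 6 h HAase against PBS; members are red and filled circles passed the test. HMGA2 and SRGAP1 stand above the rest in both panels, and higher and lower genes are interspersed.

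The members did not all vary together over the 9 arrays. The strongest correlations between members were -0.75 for YEATS4 and CPM and -0.70 for CDK4 and HMGA2. The highest positive value was 0.58 for MDM2 and TSPAN31, and MDM2 and CPM, neighbours on the chromosome, had r = 0.50. TSPAN31 and CDK4, which overlap, had r = -0.17. These values describe 9 arrays in 3 groups.

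The genes closest to each of the other members over the 9 arrays, also as a description, were different ones. For YEATS4 they were TMEM250 (r = 0.990), MRPS34 (r = 0.980) and ARIH2OS (r = 0.975). For CPM they were CCNE2, the cyclin E2 gene (r = 0.954), KRCC1 (r = 0.952) and LYRM1 (r = 0.948). CDK4 was closest to LIG1, DNA ligase 1 (r = 0.955), GABBR1 (r = 0.945) and HCCS (r = 0.935). For MDM2 (ARPC5, SRSF4 and UPB1) and TSPAN31 (LOC401312, OR2H4P and ADM2) r lay between 0.863 and 0.938.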

How the data were processed

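The authors deposited 1 table of signal intensity per probe set on a linear scale for 9 arrays. Per the series' design text it stems from CHP files; how probes were summarised is not given in the sources used here. No normalization was added, and log2(signal + 16) was analysed. Probe sets were named by the platform annotation when they had 1 symbol (41091; 1801 had several and 11721 none), and a gene's probe set was the one with the highest mean. Genes with a mean below the 30th percentile (a signal of 32.2) were left out. The 3 groups, taken from the titles, were compared with limma 3.58.1 in R 4.3.3 (lmFit, eBayes, Benjamini-Hochberg over all 13842 genes), after a test on simulated data; a second fit covered 26599 probe sets. The number of arrays limits the precision. Named genes were all members and their probe sets, up to 4 called genes by size of change of each list and comparison with PBS, up to 5 risers and 5 fallers of the region, and 3 genes closest to each member; CSF1R, PECAM1 and ITGAM were added after their values were seen. The members and lists were chosen with earlier results of these data known. Promoter and microRNA sequences are RefSeq's.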

Additional observations from a re-analysis of the deposited data

Results flagged for a closer look

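Signals of 3 of the 6 measured members differed between 24 h and 6 h of HAase by the limma contrast of the 2 times, in which 33.0% of all genes were called. With no PBS samples at 6 h, this is a difference between samples and does not separate the enzyme's effect from harvest time. HMGA2 was higher at 24 h than at 6 h by 1.16 on the log2 scale (SE 0.09; adjusted p = 6.95e-05), having been above PBS at both times. YEATS4 was higher at 24 h than at 6 h by 0.62 (SE 0.10; adjusted p = 0.00212), and lay on opposite sides of PBS at the 2 times. CPM changed by -0.34 (SE 0.09; adjusted p = 0.0194), so it was lower at 24 h than at 6 h, with its 24 h arrays overlapping those of PBS. In each case all 3 arrays of a time lay on the same side of all 3 of the other. The same was seen, in either direction, for 45.9% of all genes tested.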

How the results depend on the processing

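The 6 members were recomputed under 19 alternatives: 2 array scalings, 2 pseudocounts, 2 filters, the mean over a gene's probe sets, only the groups compared, another variance model, a replicate block and leaving out each array. The 3 HMGA2 calls, CPM at 6 h against PBS and YEATS4 at 24 h against 6 h held in all. The number of members called at 24 h against PBS, 1 in the reported fit, was 3 with quantile normalization and 2 with a pseudocount of 64, with the trended and robust variance model or with a filter at the 50th percentile; leaving out 1 array gave 1 to 2. YEATS4 joined HMGA2 in each of these, and CDK4 with quantile normalization. Changes not past the test turned sign for TSPAN31 at 6 h against PBS with the mean of probe sets (-0.14), and on leaving out 1 array. Against PBS at 24 h, CPM then ranged between -0.033 and 0.075 and TSPAN31 between -0.30 and 0.011. Against PBS at 6 h, TSPAN31 ranged between -0.085 and 0.18 and MDM2 between -0.0019 and 0.163. For MDM2 at 24 h against 6 h the range was -0.075 to 0.078. The cause was not tested. Same-numbered arrays did not deviate together (correlations -0.05 to 0.04, 0 of 9 over 0.1); with a replicate block 5187, 5447 and 4117 genes were called in place of 5577, 5863 and 4567, and no member's call changed. Signals near the control level limit the dim probe sets of HMGA2 and MDM2.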
